A study of Mus musculus with 4 samples.

Results

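The genes described here are 9 members of the insulin receptor signalling pathway: Insr, Irs1, Irs2, Pik3r1, Pik3ca, Pdpk1, Akt2, Foxo1 and Foxo3. They were chosen by name, and their probe sets are those to which the platform annotation gives one of these symbols. All 9 were measured, by 27 of the 45101 probe sets in the deposited table, and they make up 9 of the 18193 genes with a probe set naming that gene alone. Their expression was compared between endothelial cells derived from induced pluripotent stem cells of healthy control mice and of mice with diet-induced obesity (DIO), to ask whether the genes differ between cells from obese and from healthy animals.

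Each group held 2 arrays, 1 per mouse, named here by group and by the mouse number in the sample titles (control 1 and 2, DIO 1 and 2). All mice were 24 weeks old, and the cells shared 1 endothelial medium and a trypsin step ahead of RNA extraction. The strain, sex and diet of the mice are not stated in the labels, nor is the method of reprogramming, and DIO is the only named difference between the groups. The labels enter the cell type as iPSC, whereas the sample titles call the cells iPSC-derived endothelial cells. How many iPSC lines came from each mouse is not stated, so p-values reflect only how far these samples spread, which may be partly technical.

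Insulin binds a receptor tyrosine kinase, which phosphorylates insulin receptor substrate proteins. These recruit phosphatidylinositol 3-kinase (PI3-kinase), a dimer of a regulatory and a catalytic subunit, whose lipid product brings the kinases PDK1 and AKT to the membrane. AKT then phosphorylates FoxO transcription factors and so keeps them out of the nucleus. In endothelial cells this route activates the endothelial nitric oxide synthase, and its loss is a known feature of vascular insulin resistance.

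The arrays differed in markers of other cell types and in ribosomal RNA, in part along the groups. Markers of stratified epidermis averaged 6.82 in control 1, 11.70 in control 2, 8.03 in DIO 1 and 8.87 in DIO 2 over 9 of 10 listed genes, with Trp63, the dimmest of them, at 4.15, 8.37, 4.55 and 4.84. Krt10, the brightest, reached 13.96 in control 2. Control 2 thus stood apart, and the differences of the 9 genes and of the pathway genes named below are also given without it. Endothelial markers averaged 5.92 to 6.20 on the 4 arrays, and 10 of the 14 lay below 7.09, the median of gene means. The brightest of them was Esam, at 8.66 to 9.11, and the dimmest Tie1, at 3.44 to 3.73. Pluripotency markers averaged 10.13, 9.21, 10.70 and 9.55 and simple epithelial markers 12.12 to 12.27, in the same array order. Adipocyte markers averaged 3.94, 5.28, 3.92 and 4.45, where Fabp4 reached 10.30 in control 2 and Lep lay at 3.40 to 3.87. Hepatocyte markers averaged 4.75, 7.32, 5.74 and 6.28. Alb, the dimmest, lay at 3.92 to 4.32, whereas Ttr, the brightest, read 5.12, 9.55, 7.38 and 8.82. Fibroblast markers averaged 5.90, 7.38, 6.10 and 6.38, smooth muscle markers 6.87, 6.30, 7.09 and 7.01, and blood markers 5.46 to 5.75. For 3 of the 5 smooth muscle markers each DIO array was above each control, beside 21.4% of all genes. By group means, 10 of 10 pluripotency markers were higher in DIO (median of DIO minus control 0.45), but the groups overlapped for 9. All 9 epidermal markers were lower in DIO by group means (median −0.53), with overlap for 8. Control 1 averaged below both DIO arrays in that list. Every other marker list held both directions. Ribosomal 18S probe sets averaged 12.60 and 12.65 on the control arrays and 12.30 and 11.96 on the DIO arrays, lower on each DIO array than on each control. The part of these differences in the results below was not tested. In bulk RNA, fewer cells of a type and less RNA per cell cannot be told apart.

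Over the 9 genes, 8 had a lower DIO mean and only Foxo1 had a higher one, beside 46.7% of all genes with a lower DIO mean and 53.3% with a higher one. The median difference, DIO minus control on the log2 scale, was −0.41 over the 9 genes and 0.017 over all genes. Both DIO arrays lay below both controls for Irs2, Pik3ca, Pdpk1 and Foxo3 and above both for Foxo1, so the groups did not overlap for 5 of 9 genes, beside 38.4% of all genes. Without control 2, which leaves a single control to overlap, 66.7% of the 9 genes did not overlap, beside 75.7% of all genes. None of the 9 passed the threshold of an adjusted p of 0.05 (limma, Benjamini-Hochberg over all genes), nor did any of the 18193 genes (0%). At an unadjusted p below 0.05 were Pdpk1, Foxo1 and Foxo3, 3 of 9, beside 1198 genes or 6.58% of all. This count depended on the processing. It was 2 of 9 after quantile normalization, after centring each array and without the dimmest genes. By the probe set of highest variance, with trended and robust eBayes and under the replicate block it was also 2. With each gene's probe sets averaged only Pdpk1 remained, 1 of 9, beside 1209 of all genes. Testing every probe set again gave 3. Leaving out an array moved the count of the 9 genes and that of all genes up or down, depending on the array. These fits hold a single array in a group, and without control 2 the counts moved in opposite directions. After quantile normalization or after centring each array, 7 of 9 had a lower DIO mean. In these settings 54.4% and 67.7% of all genes had a higher one. Without control 2 the lower DIO means were 6 of 9 and the median was −0.17. Over all genes 45.1% were then higher, with a median of −0.033. Without control 1 the median was −0.61.

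**Figure D1:**
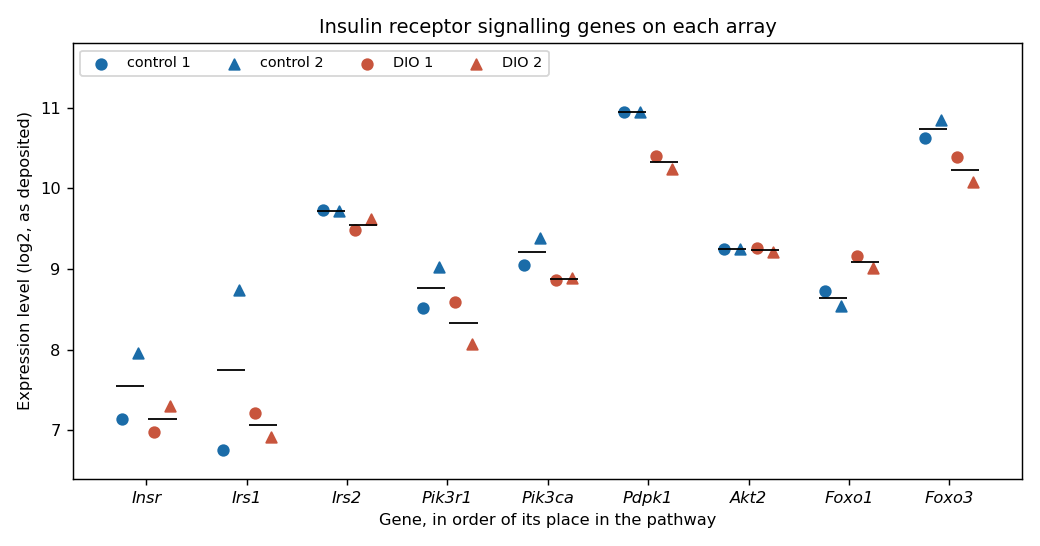
Expression level (log2, as deposited) of the 9 genes on the 4 arrays, with circles for mouse 1, triangles for mouse 2, blue for control and red for DIO; black lines are group means of 2 arrays. Irs1 spans 6.75 to 8.74 within the controls alone, while the controls of Pdpk1 coincide at 10.95 above DIO values of 10.41 and 10.24.

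The plot of levels by array also gives their order. Pdpk1 and Foxo3 were brightest, with means over the 4 arrays of 10.64 and 10.49, followed by Irs2 at 9.64, Akt2 at 9.24, Pik3ca at 9.05, Foxo1 at 8.87, Pik3r1 at 8.55, Irs1 at 7.40 and Insr at 7.34. The only neighbours in this order whose arrays did not overlap were Foxo3 above Irs2 and Irs2 above Akt2. These are levels of different probe sets with no correction for length or binding, so the order is one of deposited values and not of transcript numbers. All 9 lay above the median of gene means.

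Insr, the insulin receptor, read 7.13 and 7.96 on the control arrays and 6.97 and 7.30 on the DIO arrays. Control 2 was the highest array, and DIO 2 lay above control 1, so the groups overlapped. The difference was −0.41 ± 0.33 (SE, n = 2 per group; limma, adjusted p = 0.804), with a 95% confidence interval from −1.32 to 0.49. Without control 2 it was 8.5e-04 and without control 1 −0.83. The 2 dimmer probe sets of Insr had means of 5.34 and 4.35 in the controls and differed by 0.13 and −0.15, so the 3 probe sets did not share a direction.

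The insulin receptor substrates differed in how far their arrays spread. Irs1, a docking protein that the receptor phosphorylates, read 6.75 and 8.74 on the control arrays and 7.21 and 6.91 on the DIO arrays. Control 1 was the lowest and control 2 the highest of all arrays, and both DIO arrays lay between them. Its range of 1.99 over the 4 arrays was wider than that of 97.6% of genes or equal to it. The difference was −0.68 ± 0.71 (limma, adjusted p = 0.845), and its confidence interval ran from −2.62 to 1.25. Without control 2 it was 0.31 (adjusted p = 0.524). Without control 1 it was −1.68 and passed the threshold (limma, adjusted p = 0.0403), as did 483 genes or 2.65% of all, in a fit that sets a single control array against the DIO pair and assumes that it varies like them. Irs1 has 1 probe set.

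Irs2, the other main substrate, read 9.73 and 9.72 on the control arrays and 9.48 and 9.62 on the DIO arrays. The DIO arrays both lay below both controls, which differed from each other by 0.014. The difference was −0.17 ± 0.13 (limma, adjusted p = 0.790), with an interval from −0.52 to 0.18, and it was −0.18 without control 2 and −0.0996 without DIO 1. It also rests on 1 probe set. The range of Irs2 over the arrays was 0.25, against 1.99 for Irs1.

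The promoters of the substrates are shown because they share letters that no other promoter window of these genes held. RefSeq sequence (GRCm38.p6) was taken for the 250 bases before the starts that the reference used here held. This gave 13 windows for 8 of the 9 genes and none for Insr. Capitals mark CAAAACA, the insulin response sequence that FoxO factors can bind, and CACGTG, an E-box, each on either strand. The Irs1 window is chr1:82291440-82291689 and the Irs2 window chr8:11008930-11009179, both on the minus strand and printed 5′ to 3′ towards the start.
Irs1: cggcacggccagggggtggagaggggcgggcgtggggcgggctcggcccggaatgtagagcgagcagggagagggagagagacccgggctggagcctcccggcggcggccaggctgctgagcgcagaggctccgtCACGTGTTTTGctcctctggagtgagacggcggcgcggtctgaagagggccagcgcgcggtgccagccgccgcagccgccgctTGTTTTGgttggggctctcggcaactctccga
Irs2: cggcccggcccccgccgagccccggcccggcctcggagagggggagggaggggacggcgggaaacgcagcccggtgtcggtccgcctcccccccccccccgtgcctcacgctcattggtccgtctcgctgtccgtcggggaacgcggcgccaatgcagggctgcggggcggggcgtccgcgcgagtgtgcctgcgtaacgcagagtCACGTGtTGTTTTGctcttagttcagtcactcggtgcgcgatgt
In Irs1 the E-box at bases 115 to 110 before the start overlaps a CAAAACA match at 111 to 105, and a further match lies at 32 to 26. In Irs2 the E-box lies at 44 to 39 and the CAAAACA match at 37 to 31, on the reverse strand as in Irs1. CAAAACA was found in 5.56% and CACGTG in 6.02% of the 32851 windows of this length, and both together in 0.295%. A match is a run of letters and not a shown binding site.

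The PI3-kinase subunits had lower DIO means by their brightest probe sets. Pik3r1, which encodes the regulatory subunit p85-alpha and shorter forms, read 8.51 and 9.03 on the control arrays and 8.59 and 8.07 on the DIO arrays. DIO 1 lay just above control 1, and the replicates of each group differed by 0.51, so the groups overlapped. The difference was −0.44 ± 0.28 (limma, adjusted p = 0.771). With an array left out it ran from −0.70 to −0.18, the latter without control 2 or without DIO 2.

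Of the 3 other Pik3r1 probe sets, one read 6.32 and 6.86 on the control arrays and 6.02 and 5.41 on the DIO arrays, the last being the lowest value over the 4 probe sets. Each DIO array lay below both controls, with a difference of −0.87 ± 0.30 (limma on every probe set, adjusted p = 0.531). Another differed by −0.31, again without overlap, and the last by 0.12.

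Pik3ca, the catalytic subunit p110-alpha, read 9.05 and 9.39 on the control arrays and 8.86 and 8.89 on the DIO arrays. Both DIO arrays lay below both controls. The difference was −0.34 ± 0.17 (limma, adjusted p = 0.739), with an interval from −0.80 to 0.12. It was −0.17 without control 2 and −0.51 without control 1. Its 6 probe sets split evenly: the next brightest differed by −0.23 and the dimmest, near 3.85, by −0.023, while those with control means of 8.03, 7.04 and 6.51 differed by 0.033, 0.42 and 0.34. Their average turned the gene's difference to 0.032. The probe set with a difference of 0.34 read 6.38 and 6.65 on the control arrays and 6.79 and 6.91 on the DIO arrays, so here both DIO arrays lay above both controls.

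Pdpk1, which encodes PDK1, the kinase that phosphorylates AKT in its activation loop, read 10.95 and 10.95 on the control arrays and 10.41 and 10.24 on the DIO arrays. The controls coincided, and both DIO arrays lay below them by more than the DIO arrays differed from each other, which was 0.16. The difference was −0.63 ± 0.13 (limma, unadjusted p = 0.00798, adjusted p = 0.728), a DIO level of 0.646 of control with an interval from 0.503 to 0.830. By p it was number 109 of 18193 genes. Without control 2 it was −0.63 and over the 4 fits that each left out an array it ranged from −0.71 to −0.55.

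The other Pdpk1 probe set gave a like picture. It read 10.85 and 10.82 on the control arrays and 10.43 and 10.28 on the DIO arrays, a difference of −0.48 ± 0.12 (limma on every probe set, adjusted p = 0.531). Pdpk1 was thus lower in DIO in 2 of 2 probe sets without overlap, the only gene of the 9 with more than 1 probe set for which no probe set overlapped between the groups.

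Akt2, the AKT form most tied to insulin action on glucose, read 9.25 and 9.24 on the control arrays and 9.26 and 9.21 on the DIO arrays. The 4 arrays lay within 0.048 of one another. The difference was −0.011 ± 0.12 (limma, adjusted p = 0.989), with an interval from −0.34 to 0.32, which allows a change of about that size in either direction. It was −0.016 without control 2. It turned to 0.068 after quantile normalization and 0.081 after centring each array, where the medians over all genes were 0.024 and 0.11. The 2 dimmer probe sets differed by −0.21, without overlap, and −0.056.

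**Figure D2:**
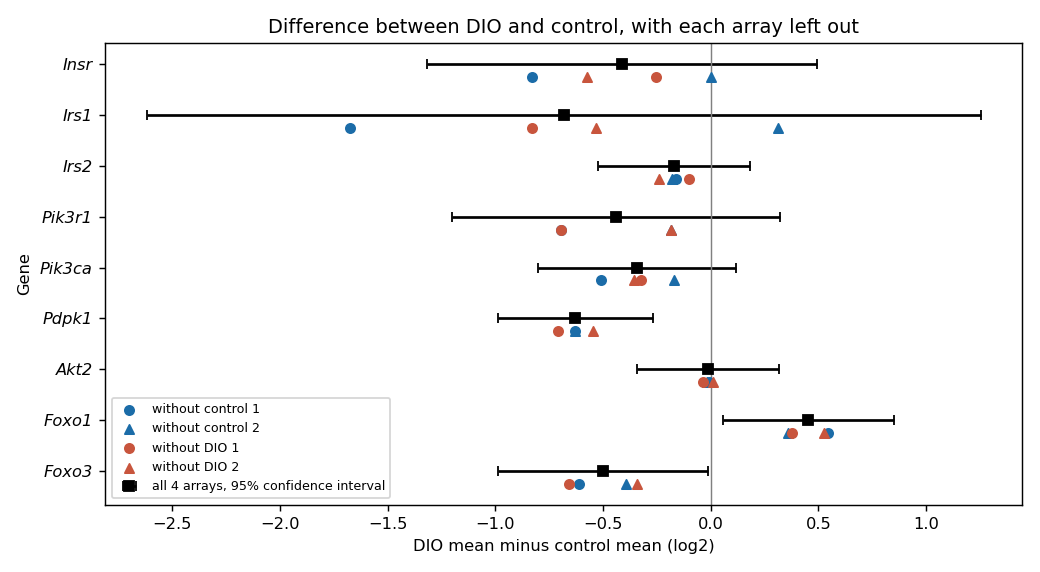
Difference between DIO and control means (log2) for the 9 genes; black squares and bars give the fit of 4 arrays with its 95% confidence interval, and coloured points below them the fits that each leave out an array (circle and triangle for mouse 1 and 2, blue for control and red for DIO). Irs1 moves from −1.68 to 0.31 between the fits, whereas Pdpk1 stays between −0.71 and −0.55.

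The FoxO factors had differences of opposite sign. Foxo1, which drives glucose production in liver and restrains growth of endothelial cells, read 8.73 and 8.55 on the control arrays and 9.17 and 9.02 on the DIO arrays. The DIO arrays both lay above both controls, and the replicates of a group differed by 0.19 and 0.15. The difference was 0.45 ± 0.15 (limma, unadjusted p = 0.0338, adjusted p = 0.728), a DIO level of 1.37 times control with an interval from 1.04 to 1.80. Without control 2 it was 0.36. The 3 other probe sets also had higher DIO means, by 0.28, 0.32 and 0.12, but with overlap between the groups, since control 1 lay above DIO 2 in those differing by 0.28 and 0.32.

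Foxo3, its relative with targets in stress resistance and cell cycle arrest, read 10.63 and 10.84 on the control arrays and 10.39 and 10.08 on the DIO arrays. Each DIO array lay below both controls. The difference was −0.50 ± 0.18 (limma, unadjusted p = 0.0462, adjusted p = 0.728), a DIO level of 0.707 of control with an interval from 0.504 to 0.991. Without control 2 it was −0.39.

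The second Foxo3 probe set, with 8.80 and 9.21 on the control arrays and 8.91 and 8.66 on the DIO arrays, differed by −0.22 with overlap. The dimmest lay between 5.74 and 5.78 on every array. A probe set that names both Foxo3 and the predicted gene Gm38485 was left out of the gene's values. It read 6.81 and 6.86 on the control arrays and 6.65 and 6.22 on the DIO arrays.

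The windows before the starts of the FoxO genes and Pdpk1 are shown as the genes with the smallest p. Capitals mark GGGCGG, a GC box, and CCAAT, on either strand. They are chr3:52268087-52268336 on the plus strand for Foxo1, chr10:42276696-42276945 on the minus strand for Foxo3 and chr17:24141595-24141844 on the minus strand for Pdpk1, where the window with more CpG of the gene's 2 was taken. Both Pdpk1 windows lie within the annotated span of the gene, so they precede internal starts.
Foxo1: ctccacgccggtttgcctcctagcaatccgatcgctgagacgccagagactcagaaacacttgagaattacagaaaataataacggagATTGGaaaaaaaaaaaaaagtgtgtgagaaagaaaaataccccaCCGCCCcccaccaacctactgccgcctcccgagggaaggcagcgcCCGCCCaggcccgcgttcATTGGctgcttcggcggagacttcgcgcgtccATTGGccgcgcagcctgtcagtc
Foxo3: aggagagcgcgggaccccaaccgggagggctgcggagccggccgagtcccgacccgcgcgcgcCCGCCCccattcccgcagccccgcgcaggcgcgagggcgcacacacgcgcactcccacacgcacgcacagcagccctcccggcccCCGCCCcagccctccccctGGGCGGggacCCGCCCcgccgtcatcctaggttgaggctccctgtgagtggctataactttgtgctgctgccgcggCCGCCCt
Pdpk1: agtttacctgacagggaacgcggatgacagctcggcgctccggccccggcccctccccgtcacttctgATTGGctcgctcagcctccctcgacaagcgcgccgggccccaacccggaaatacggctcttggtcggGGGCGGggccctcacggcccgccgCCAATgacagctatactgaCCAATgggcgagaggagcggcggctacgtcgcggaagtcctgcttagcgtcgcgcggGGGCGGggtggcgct
Foxo3 held 5 GC boxes and no CCAAT, whereas Foxo1 and Pdpk1 each held 2 GC boxes and 3 CCAAT. The GC content was 56% for Foxo1, 76.4% for Foxo3 and 69.6% for Pdpk1, against a median of 52.4% over all windows. GGGCGG was found in 32.7% and CCAAT in 33.8% of all windows. The FoxO motif GTAAACA, found in 3.17% of all windows, was in 0 of the 13 windows of these genes, and its core TAAACA, found in 12%, was in 1, an Akt2 window. The other motifs searched on both strands were CCGGAAG, found in 6.91% of windows and in that of Pik3ca, and TGACGTCA (1.55%), TCACNCCAC (1.05%) and the NRF1 palindrome (0.782%), found in none of the 13.

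**Figure D3:**
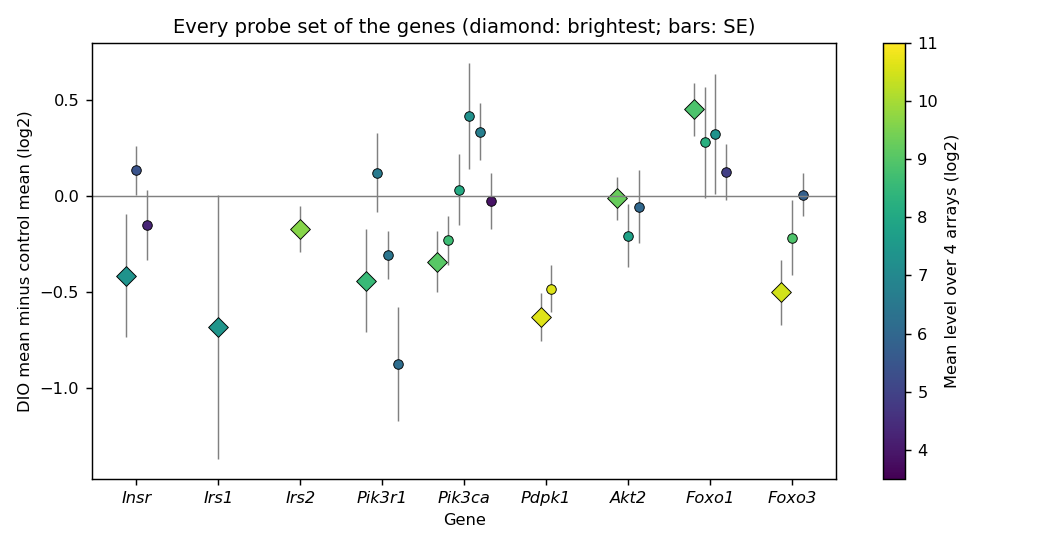
Difference between DIO and control means (log2, bars are SE) of each of the 27 probe sets, with the mean level over the 4 arrays as colour and a diamond for the brightest probe set of each gene. All 4 probe sets of Foxo1 lie above 0 and both of Pdpk1 below, while the 6 of Pik3ca run from −0.34 to 0.42.

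Of the 27 probe sets, 17 had a lower DIO mean, beside 47.6% of all probe sets, and 12 did not overlap between the groups, beside 41.3%. In limma on every probe set 0 passed (0% of all 45037) and 5 had an unadjusted p below 0.05, beside 9.29%. Without control 2, 17 again had a lower DIO mean, and 70.4% did not overlap, beside 75.7% of all probe sets. The count at an unadjusted p below 0.05 moved up or down when another array was left out. The share of all probe sets at that p in those fits is not given here. Among the 18 that do not stand for their gene, 9 were lower and 9 higher, so the balance of 8 to 1 among the brightest was not seen in the rest. Of these 18, 11 were lower without control 2 or without DIO 2, 9 without control 1 and 7 without DIO 1. Of the 7 genes with more than 1 probe set, Pdpk1, Akt2 and Foxo1 had all of them in one direction.

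The profiles of the genes over the 4 arrays were compared by the root mean square distance after centring each gene on its own mean, in log2 units. Control 2 was the highest array for 5 of the 9, namely Insr, Irs1, Pik3r1, Pik3ca and Foxo3. Irs2 and Akt2 were closest to each other, at 0.104, both with small ranges, followed by Pdpk1 and Foxo3 at 0.114 and Pik3r1 and Foxo3 at 0.130. Among genes within 1 log2 unit in level, the nearest to Insr were Pde5a at 0.0309, Ube2d1 at 0.0386 and Trim16 at 0.0410. Pde5a, which breaks down cyclic GMP, read 6.31 and 7.12 on the control arrays and 6.21 and 6.46 on the DIO arrays. The nearest to Irs2 were Grb7 at 0.00900, Ppp1r37 at 0.0107 and Eci2 at 0.0141, but 476 of 4273 genes lay within 0.1 of this flat profile. The nearest to Foxo1 were Nusap1 at 0.0290, Skp2 at 0.0430 and Zfp991 at 0.0446, with 70 of 4474 within 0.1, against 16 of 3555 for Insr. Nusap1, a protein of the mitotic spindle, read 9.12 and 8.98 on the control arrays and 9.51 and 9.41 on the DIO arrays. With 4 arrays these distances describe the libraries and show nothing beyond them.

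Of 70 further genes of the pathway in 5 lists, 64 were measured and 0 passed the threshold (limma, adjusted p), 0 higher and 0 lower, while 8 of 64 had an unadjusted p below 0.05, beside 6.58% of all genes. With an array left out, in fits that hold a single array in a group, this count and the share of all genes both changed. Both rose when either control was left out and fell when either DIO array was. Of the 64, 40 had a lower DIO mean, with a median of −0.099 over them. The lower ones were 49 without control 2, with a median of −0.16, and the median was −0.023 without control 1, −0.18 without DIO 1 and −0.035 without DIO 2. Both DIO arrays lay below both controls for 24 of them, beside 17% of all genes, and above for 9, beside 21.4%.

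The other PI3-kinase subunits were lower in DIO in 4 of 6, with a median of −0.31, and −0.38 without control 2. Pik3cb, the catalytic subunit p110-beta, read 10.66 and 10.50 on the control arrays and 9.93 and 9.72 on the DIO arrays. The DIO arrays both lay below both controls, and the difference was −0.75 ± 0.15 (limma, adjusted p = 0.728), or −0.83 without control 2. Pik3r3, the regulatory subunit p55-gamma, read 9.24 and 9.35 on the control arrays and 8.79 and 8.62 on the DIO arrays, a difference of −0.58 ± 0.14, and −0.53 without control 2. Pik3r5, a regulatory subunit of the gamma form, was dim and differed by −0.26, and by −0.24 without control 2. The groups did not overlap for any of these 3, and they were apart in 5 of the 6 subunits, beside 38.4% of all genes. In 4 of the 5 each DIO array was below each control. The exception was Pik3cd, named after its values were seen, which differed by 0.11.

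Inhibitors of the pathway had lower DIO means in 9 of 14, with a median of −0.20, and −0.023 without control 1. Without control 2 they were lower in 11 of 14, with a median of −0.23, beside −0.033 over all genes. Grb10, an adaptor that blocks the insulin receptor kinase, read 9.52 and 10.37 on the control arrays and 11.43 and 10.95 on the DIO arrays. Each DIO array lay above both controls, with a difference of 1.25 ± 0.36 (limma, adjusted p = 0.728). It was 1.67 without control 2, 0.82 without control 1 and 0.40 with its 3 probe sets averaged, of which 2 had this direction. Grb14, a relative with the same role, read 5.52 and 5.96 on the control arrays and 4.91 and 5.07 on the DIO arrays, a difference of −0.75 ± 0.20, and −0.53 without control 2. That of its 2 probe sets averaged was −0.31, and only 1 had this direction. Pik3ip1, which restrains the catalytic subunit, read 8.71 and 8.87 on the control arrays and 8.33 and 7.71 on the DIO arrays, a difference of −0.77 ± 0.25. It was −0.69 without control 2, −0.46 without DIO 2 and −1.08 without DIO 1.

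AKT kinases other than Akt2, mTOR genes and AKT substrates split 7 higher and 9 lower, with a median of −0.028. Centring each array turned this to 9 higher and a median of 0.065, but it also moved the median over all genes from 0.017 to 0.11. Leaving out control 2 gave 3 higher and a median of −0.12, beside −0.033 over all genes. Tbc1d4, an AKT substrate that holds glucose transporters inside the cell, read 8.05 and 7.72 on the control arrays and 7.25 and 7.11 on the DIO arrays. The difference was −0.71 ± 0.17 (limma, adjusted p = 0.728), without overlap, and −0.87 without control 2. Eif4ebp1, a repressor of translation that mTOR inactivates, read 12.11 and 11.91 on the control arrays and 12.36 and 12.56 on the DIO arrays, higher by 0.45 ± 0.16, and by 0.35 without control 2. Gsk3b, a kinase that AKT inhibits, differed by −0.40 ± 0.17, by −0.38 without control 2 and by −0.23 without DIO 2, and 6 of its 6 probe sets had a lower DIO mean.

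Receptor adaptors and scaffolds had higher DIO means in 5 of 9, with a median of 0.089. Without control 2 it was 2 of 9, beside 45.1% of all genes, with a median of −0.099. Without DIO 2 the median was −0.0083. Irs4, a further substrate, was dim, with 3.85 and 3.58 on the control arrays and 4.04 and 4.08 on the DIO arrays. Cbl, a ubiquitin ligase, differed by −0.19, but by 0.019 with its probe sets averaged, and Grb2, the link to Ras, by −0.24. Without control 2 these were 0.21 for Irs4, −0.19 for Cbl and −0.43 for Grb2. Without control 1 that of Grb2 was −0.053.

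Known FoxO target genes had lower DIO means in 14 of 19, with a median of −0.20, and in 14 of 19 with a median of −0.15 without control 2. After centring each array, 11 were lower, while 67.7% of all genes were then higher. Without DIO 2, 10 were lower, with a median of −0.085, beside 54.7% of all genes higher. Cat, the catalase, read 10.47 and 10.91 on the control arrays and 11.16 and 11.57 on the DIO arrays. Both DIO arrays lay above both controls, with a difference of 0.67 ± 0.24 (limma, adjusted p = 0.728), or 0.89 without control 2. Sesn1 and Sesn3, sestrins that restrain mTOR, had lower DIO means without overlap, and neither passed (limma, adjusted p = 0.728). Sesn3 read 7.92 and 8.56 on the control arrays and 7.61 and 7.61 on the DIO arrays. It differed by −0.63 ± 0.25, or by −0.31 without control 2 and −0.95 without control 1. Sesn1 differed by −0.43 ± 0.17, and by −0.39 without control 2 and −0.26 without DIO 2, but by −0.063 with its 4 probe sets averaged and by 0.70 in the one with the highest variance.

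**Figure D4:**
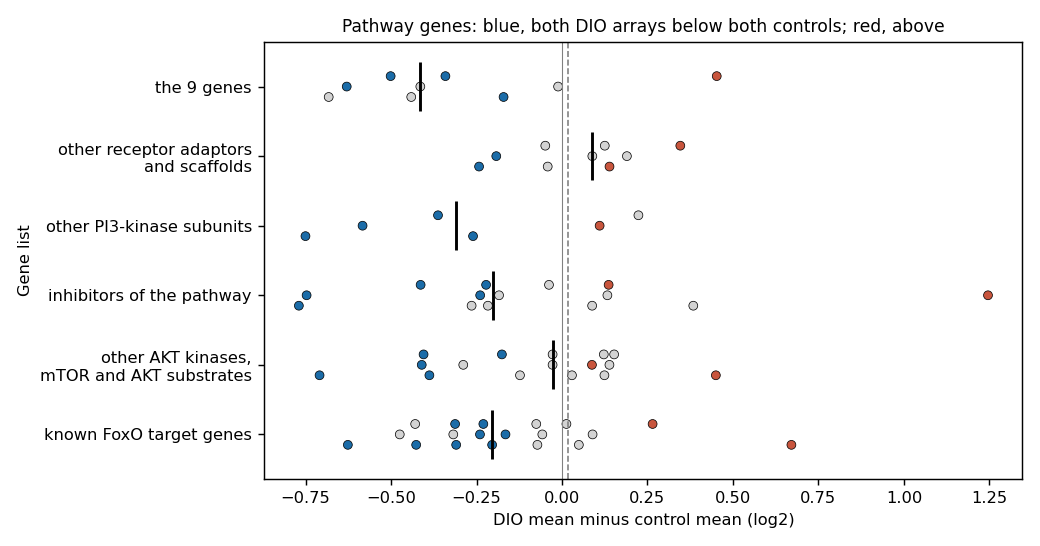
Difference between DIO and control means (log2) of the 9 genes and the 64 other measured pathway genes by list; black bars are list medians, the dashed line is the median of all genes at 0.017, and grey points are genes whose groups overlap. The median of the 9 genes is −0.41 and those of the other lists run from −0.31 to 0.089, with Grb10 the farthest point to the right at 1.25.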

How the data were processed

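Total RNA of 4 samples was labelled by the Affymetrix 3'IVT Express protocol, per the labels' protocols. The authors deposited 1 table of log2 expression levels per probe set. How background, normalization and probe summary were handled is not given in the sources used here. Values between 2.59 and 14.56 show a log2 scale, with column medians of 5.61 to 5.65. No detection calls were used here. Of 45101 probe sets, 64 manufacturer controls were left out. The platform annotation gave 1 symbol to 34945 probe sets, several to 932, and did not list 9160. The brightest probe set, by its mean over the 4 arrays, stood for each of 18193 genes.

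The groups were compared with limma 3.58.1 (R 4.3.3; lmFit and eBayes; 2-sided tests), adjusting p over all genes by Benjamini-Hochberg. The SE given is limma's moderated one. With 2 arrays per group, 0.333 is the smallest p that an exact permutation test allows. The number of arrays limits the precision: the 95% confidence interval had a median of 0.456 to either side. On simulated arrays of 18193 genes the fit recovered 0% of true log2 changes of 1, 52% of 2 and 75.8% of 3. Noise was drawn from each gene's own residual SD, and a small set of genes was changed by the same size. The recovery depends on these choices and may differ from that in the real arrays. The genes and lists were chosen with earlier results of these data known. All 9 genes were named, and of each further list those that passed or, with fewer than 2, the 3 with the smallest p. The nearest genes in profile were taken for Insr, Irs2 and Foxo1. Of the marker lists, the brightest or dimmest member was named. The promoter motifs were also chosen after the values were seen. Alternatives changed the scaling, the filter, the probe set, the variance model, the block and the arrays.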

Additional observations from a re-analysis of the deposited data

How the results depend on the processing

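Over 12 alternatives, 101 of 108 recomputed differences of the 9 genes kept their sign, and Irs2, Pik3r1, Pdpk1, Foxo1 and Foxo3 kept it in each. The 7 that turned were Akt2 to 0.068 after quantile normalization, to 0.081 after centring and to 0.013 without DIO 2; Pik3ca to 0.032 with probe sets averaged and to 0.42 by its probe set of highest variance; and, without control 2, Insr to 8.5e-04 and Irs1 to 0.31. With an array left out, Insr ran from −0.83 to 8.5e-04, Irs1 from −1.68 to 0.31 and Akt2 from −0.035 to 0.013. The cause was not tested. Of the further pathway genes named, Cbl turned to 0.019 with averaged probe sets and to 0.17 by the probe set of highest variance, and Sesn1 to 0.70 by the latter. Higher DIO means were 2 of 9 after quantile normalization, after centring, with averaged probe sets and by the highest variance, and 1 to 3 with an array left out. The median of the 9 was −0.17 with averaged probe sets and −0.61 to −0.17 with an array left out.

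Genes past the threshold were 0 in each fit of 4 arrays and 0 to 483 with an array left out, and members past it 0 to 1, Irs1 without control 1. The titles number the mice 1 and 2 in both groups, which does not pair them. Deviations of same-numbered arrays correlated at 0.333 over genes, and with the number as a replicate block 0 genes passed (982 at an unadjusted p below 0.05, against 1198 without it). Of the 9 genes, 2 were below 0.05 under the block, against 3. Under the block Pdpk1 differed by −0.63 (limma, adjusted p = 0.727). Signal over background is unknown without detection calls, which limits the dim probe sets most.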
